A study of Mus musculus with 36 samples.

Results

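The tumors described here were grown from 67NR cells, a mouse mammary carcinoma line, in NSG mice and carried either shRNA against *Bptf* or a control shRNA. They were chosen by their titles and strain in the sample labels, 6 BPTF knockdown (KD) tumors and 3 control tumors, together 9 of the 36 tumors profiled on Affymetrix mouse arrays in the series. The study asked how depletion of BPTF in breast cancer cells changes tumor gene expression in mice with an intact immune system (BALB/c) and in mice lacking NK, T and B cells (NSG). Female mice of 6 to 8 weeks received 100000 67NR cells in the fourth mammary fat pad, and the tumors were taken after 21 days. The host strain is given as NOD/SCID/Ifrg2r -/- (NSG) for both groups. BPTF KD cells had been transduced with MMLV retroviruses expressing 1 of 2 hairpins against *Bptf*, and control cells with a retrovirus expressing a control hairpin. Both groups therefore went through transduction and transplantation, and the labels do not say which hairpin a tumor carried. The BPTF KD group may therefore mix both hairpins, whose effects cannot be told apart. An NSG host keeps macrophages, neutrophils, fibroblasts, vessels and fat, so the RNA of a tumor is that of the 67NR cells together with these host cells.

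BPTF is the largest subunit of NURF, a chromatin remodeling complex in which the ISWI ATPase SMARCA1 slides nucleosomes along DNA. BPTF brings the complex to chromatin through a PHD finger that binds methylated lysine on histone H3 and a bromodomain that binds acetylated histones, and it works with sequence-specific factors to open or close promoters and enhancers. Gene expression in a BPTF KD tumor in NSG mice can change in the cancer cells and in the remaining host cells, but not through T, B or NK cells. In bulk tumor RNA, fewer cells of a type and less RNA per cell cannot be told apart.

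All values are log2 levels of the probe set with the highest mean for each of 12394 genes, listed in the order of tumors 1 to 6 for BPTF KD and 1 to 3 for controls. Levels of different genes come from different probes and are not set against each other. Array medians ran from 7.06 to 7.2, and correlations between the 9 tumors from 0.9739 to 0.995, with no identical pair. Mesenchymal and epithelial markers were read first. *Vim*, an intermediate filament of mesenchymal cells, was at 14.26 to 14.55 in BPTF KD tumors and 14.37 to 14.49 in controls. The epithelial adhesion gene *Epcam* was at 5.25 to 6.46 in BPTF KD tumors and 4.75 to 6.02 in controls. Keratin *Krt18* was at 4.72 to 6.39 in BPTF KD tumors and 4.45 to 5.38 in controls, and keratin *Krt8* at 8.38 to 9.22 and 6.56 to 7.22. *Krt8* is described below with the basal keratins *Krt14*, which lay above every control, and *Krt5*, which differed little. The mean of 14 T cell genes lay at 5.49 to 5.76 in BPTF KD tumors and 5.48 to 5.66 in controls, that of 9 B cell genes at 5.0 to 5.29 in BPTF KD tumors and 4.99 to 5.12 in controls, and that of 12 NK cell genes at 4.64 to 4.73 in BPTF KD tumors and 4.54 to 4.72 in controls. These lymphocyte lists were alike low in both groups. Of the NK cell genes, 10 were among the dimmest 25% of all genes.

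*Bptf*, the targeted gene, did not separate the groups. Its brightest probe set was at 9.31, 9.23, 9.50, 9.78, 10.01 and 9.15 in the tumors labelled BPTF KD and at 10.17, 9.37 and 9.75 in controls (difference -0.27 ± 0.22 SE, two-sided exact permutation p = 0.333). Tumors 1, 2 and 6 lay below every control and tumor 3 just above control 2, whereas tumors 4 and 5 lay among the controls. A second probe set (1427310_at) was at 7.41, 7.73, 8.11, 8.82, 9.38 and 7.91 in the tumors labelled BPTF KD and at 9.36, 8.48 and 9.12 in controls (-0.76, exact p = 0.167). The third (1427311_at) was at 5.09, 4.86, 5.16, 6.18, 6.19 and 4.89 in the tumors labelled BPTF KD and at 6.89, 5.40 and 6.23 in controls (-0.78, exact p = 0.119). In both, tumors 1, 2, 3 and 6 lay below every control, and tumors 4 and 5 did not. The fourth probe set (1439102_at) differed by 0.06 (exact p = 0.714), with 2 tumors below and 3 above every control. With 6 tumors against 3, the smallest two-sided p the test can give is 0.0238. BPTF KD below is therefore each tumor's label, and directions follow the label, not the level of *Bptf*.

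**Figure D1:**
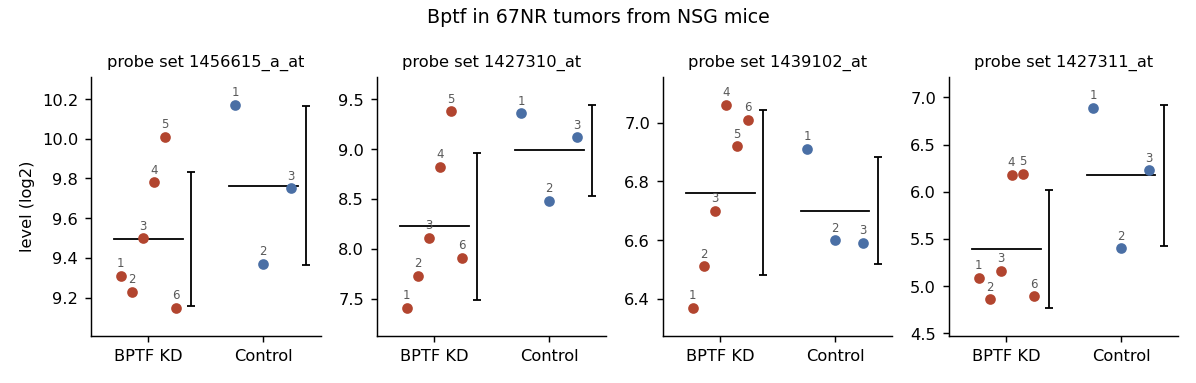
Log2 level of the 4 *Bptf* probe sets in each 67NR tumor from NSG mice, with 6 tumors labelled BPTF KD (left, red) and 3 controls (right, blue); numbers are the tumor numbers, horizontal lines are group means and brackets are the mean ± SD. In 1427310_at and 1427311_at, tumors 1, 2, 3 and 6 lie below every control, and tumors 4 and 5 lie at the level of the controls.

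The other NURF and ISWI genes were flat. Of 12 measured, 0 passed the test in either direction (limma, 1 lower at an unadjusted p under 0.05) and the median log2 fold change was -0.003. *Rbbp4* and *Rbbp7*, histone-binding subunits of NURF, differed by 0.06 and 0.13, and the ATPase gene *Smarca1* by 0.18, close to the bottom of the array's range. *Ctcf*, which encodes an insulator protein known to act with NURF, was at 10.12, 10.18, 10.24, 10.46, 10.69 and 9.95 in BPTF KD tumors and 10.81, 10.78 and 10.76 in controls. Every BPTF KD tumor lay below every control, but the difference did not pass (log2 fold change -0.51 ± 0.15 SE, adjusted p = 0.152). RNA integrity, taken from the actin and Gapdh controls as the level at the 3′ end less that at the 5′ end, averaged 0.619 ± 0.157 in BPTF KD tumors and 0.488 ± 0.045 in controls (SD, exact permutation p = 0.238).

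Across the genome, 73 genes rose and 68 fell with BPTF KD at an adjusted p under 0.05 (limma, Benjamini-Hochberg over all genes), which is 0.589% and 0.549% of the genes tested and 1.14% together. The median log2 fold change was 0.022 over all genes, 1.10 over the genes that rose and -1.17 over those that fell. In all 141, the 6 BPTF KD tumors lay outside the range of the controls. Among all genes this was so for 3.76% upward and 3.1% downward, since 466 genes lay above and 384 below every control in all 6 tumors. An unadjusted p under 0.05 was reached by 934 of the 12394 genes upward and 817 downward. Counts of list genes at that threshold below are to be read against these. Of the called genes, 57 had more than 1 probe set, and in 53 of these all went in 1 direction. Same direction did not mean equal size. The weakest probe set differed by -0.02 in *Pcdh7*, 0.01 in *Ak4*, 0.15 in *Pard6g*, 0.195 in *Kcnab2*, 0.3 in *Il13ra1* and 0.315 in *Peg3*.

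The number of calls rested on single tumors. BPTF KD tumor 5 was the BPTF KD tumor nearest to the controls for 34 of the 73 genes that rose and 26 of the 68 that fell. BPTF KD tumor 4, like tumor 5 at control levels of *Bptf*, was nearest for 2 and 4. Control 2 was the control nearest to the BPTF KD tumors for 59 of the genes that rose and 55 of those that fell. The mean of the hypoxia and glycolysis genes was 11.30 in BPTF KD tumor 5, 10.12 to 10.83 in the other BPTF KD tumors and 10.10 to 10.61 in controls. What set tumor 5 apart was not tested. On the first principal component, with 36.5% of the variance, BPTF KD tumor 5 lay at 20.4, on the side of the controls (27.7, 5.9 and 25.6), and the other BPTF KD tumors lay between -24.5 and -3.5. Without BPTF KD tumor 5 the test called 620 genes, among them all 141. Without control 2 it called 359, with 66 of the genes that rose and 65 of those that fell. Without control 1 it called 5 genes and without control 3 it called 23. It called 67, 68, 45, 83 and 145 without BPTF KD tumors 1, 2, 3, 4 and 6. Of the genes that rose 29, and of those that fell 15, passed in at least 7 of the 9 runs that left out 1 tumor, and that number is given below for the genes described in full. *Dcn*, *Slc40a1*, *Kctd4*, *Dppa4* and *Prss22* passed in all 9.

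Small leucine-rich proteoglycans, secreted proteins that bind collagen fibrils and growth factors, were the gene group with the largest shift. Of 11 measured, 3 rose and 0 fell, and 7 lay above every control in all 6 BPTF KD tumors (against 3.76% of all genes). The median log2 fold change was 1.59, against 0.022 over all genes. The mean level of the 11 lay at 8.19 to 8.93 in BPTF KD tumors and at 7.15 to 7.52 in controls. *Aspn* encodes asporin, which binds collagen and TGF-β. It was at 11.65, 11.28, 12.24, 11.78, 9.88 and 10.80 in BPTF KD tumors and 8.72, 8.61 and 8.63 in controls. Every BPTF KD tumor was above every control, tumor 5 by the least, and the level was 6.14-fold higher (log2 fold change 2.62 ± 0.41 SE, adjusted p = 0.0178, called in 7 of 9 runs). *Ogn* encodes osteoglycin and was at 13.72, 13.39, 14, 13.76, 12.67 and 13.28 in BPTF KD tumors and 10.98, 11.72 and 10.56 in controls. It was 5.22-fold higher with no overlap (log2 fold change 2.38 ± 0.30 SE, adjusted p = 0.00583, 8 of 9 runs). *Omd*, the gene of osteomodulin that lies between *Aspn* and *Ogn* on chromosome 13, was at 8.01, 7.65, 8.20, 7.35, 5.98 and 6.91 in BPTF KD tumors and 5.95, 5.79 and 5.36 in controls. BPTF KD tumor 5 was barely above control 1, and the difference did not pass (log2 fold change 1.65 ± 0.41 SE, adjusted p = 0.0918).

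*Dcn*, the gene of decorin, the prototype of the family that regulates fibril assembly, passed in each run that left out 1 tumor but not in a fit of all 36 tumors (adjusted p = 0.188). In that limma fit 47 of the 102 called genes named lost the call, *Ogn* among them (adjusted p = 0.239). *Dcn* was at 13.67, 13.60, 13.73, 13.68, 13.65 and 14.18 in BPTF KD tumors and 12.24, 11.99 and 11.61 in controls. The 6 BPTF KD tumors differed little from one another, apart from a higher tumor 6, and all were more than 1 log2 unit above the highest control (3.49-fold, log2 fold change 1.80 ± 0.16 SE, adjusted p = 0.00152). *Bgn*, encoding biglycan, was at 11.84, 12.47, 12.90, 13.75, 13.54 and 11.94 in BPTF KD tumors and 11.31, 11.69 and 10.46 in controls, 3-fold higher on average but with BPTF KD tumors 1 and 6 close to control 2 (log2 fold change 1.59 ± 0.44 SE, adjusted p = 0.122). *Fmod*, encoding fibromodulin, was at 5.62, 5.71, 5.57, 5.69, 5.61 and 5.63 in BPTF KD tumors and 5.07, 5.36 and 4.97 in controls (log2 fold change 0.51 ± 0.11 SE, adjusted p = 0.0527).

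The promoters of *Aspn* and *Ogn* are shown because these neighbors had the largest increases, and those of *Mmp10* and *Plet1* because they were among the largest decreases and hold both motifs searched. Each is the 250 bases before the start of the gene on the plus strand, 5′ to 3′, from RefSeq (GRCm38.p6), with capitals marking the TATA box letters TATAAA on either strand and the AP-1 letters TGANTCA, both searched on both strands.
Aspn, chr13:49544193-49544442: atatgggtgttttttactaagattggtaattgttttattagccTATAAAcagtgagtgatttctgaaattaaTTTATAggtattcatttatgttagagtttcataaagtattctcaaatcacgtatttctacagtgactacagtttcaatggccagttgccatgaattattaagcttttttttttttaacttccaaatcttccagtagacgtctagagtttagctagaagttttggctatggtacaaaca
Ogn, chr13:49607765-49608014: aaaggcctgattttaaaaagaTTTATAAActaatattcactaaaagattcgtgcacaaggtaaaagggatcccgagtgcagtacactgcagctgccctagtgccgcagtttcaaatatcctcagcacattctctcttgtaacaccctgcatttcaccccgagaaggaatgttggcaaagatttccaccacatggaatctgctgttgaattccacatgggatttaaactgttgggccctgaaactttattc
Mmp10, chr9:7502092-7502341: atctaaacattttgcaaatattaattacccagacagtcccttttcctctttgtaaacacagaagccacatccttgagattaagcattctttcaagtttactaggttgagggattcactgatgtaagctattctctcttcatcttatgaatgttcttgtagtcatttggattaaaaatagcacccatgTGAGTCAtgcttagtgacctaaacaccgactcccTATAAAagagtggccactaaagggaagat
Plet1, chr9:50494275-50494524: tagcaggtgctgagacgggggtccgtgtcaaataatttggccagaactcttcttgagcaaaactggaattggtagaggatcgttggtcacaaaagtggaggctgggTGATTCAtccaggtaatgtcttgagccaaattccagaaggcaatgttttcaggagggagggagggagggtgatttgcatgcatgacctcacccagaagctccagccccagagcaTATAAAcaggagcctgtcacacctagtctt

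*Mmp10* and *Plet1* have TATAAA at 29 and 30 bases before the start, where a TATA box lies in promoters that use one, and TGANTCA at 63 and 144 bases before it. In *Aspn* the letters lie at 207 and, on the opposite strand, 178 bases before the start, and in *Ogn* both strands overlap at 227 and 229. Promoter sequences were matched for 9883 of 12394 genes. TATAAA was found in 10 of 60 promoters of genes that rose (16.7%), in 5 of 51 of genes that fell (9.8%) and in 903 of all (9.14%). TGANTCA was found in 3 of 60 (5%), 8 of 51 (15.7%) and 545 (5.51%). A match of letters is a description and does not show that a factor binds there.

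**Figure D2:**
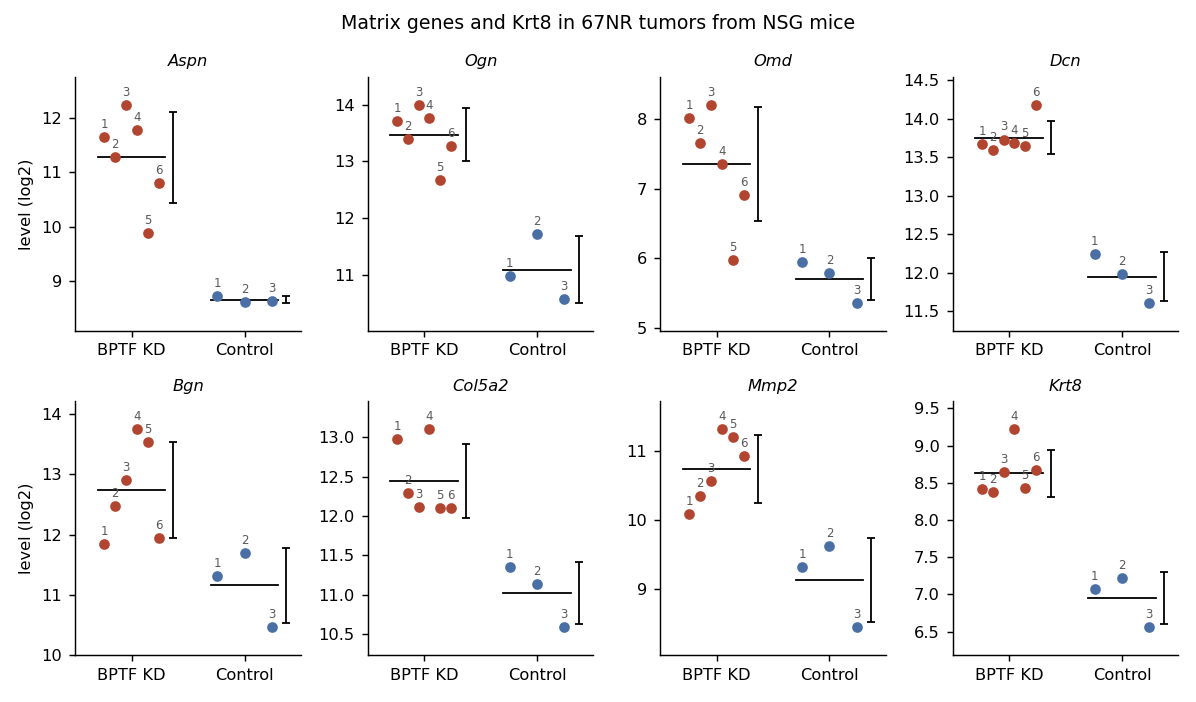
Log2 level of 5 small leucine-rich proteoglycans or their neighbor (*Aspn*, *Ogn*, *Omd*, *Dcn*, *Bgn*), *Col5a2*, *Mmp2* and *Krt8* in each 67NR tumor from NSG mice, BPTF KD left (red, n = 6) and control right (blue, n = 3), with tumor numbers, group means (lines) and mean ± SD (brackets). All 6 BPTF KD tumors lie above all 3 controls in each panel, with a narrow gap in *Omd* and *Bgn*.

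Collagen genes were higher as a group, although few passed one by one. Of 20 genes of fibrillar collagens and their processing enzymes, 1 rose and 0 fell, 18 were higher, and the median was 0.71. Of these 20, 8 lay above every control in all 6 tumors (against 3.76% of all genes). *Col5a2*, whose chain starts type I collagen fibrils as part of type V collagen, was at 12.98, 12.29, 12.11, 13.10, 12.10 and 12.10 in BPTF KD tumors and 11.35, 11.14 and 10.59 in controls. It rose 2.68-fold without overlap (log2 fold change 1.42 ± 0.27 SE, adjusted p = 0.0335, 4 of 9 runs). *Lox*, the lysyl oxidase that crosslinks collagen, was at 11.51, 10.93, 10.86, 12.45, 10.85 and 10.83 in BPTF KD tumors and 10.06, 9.92 and 9.20 in controls and *Col1a2*, a chain of type I collagen, at 13.43, 13.45, 13.37, 14.31, 14.16 and 13.13 in BPTF KD tumors and 12.88, 12.74 and 11.89 in controls. Neither overlapped with the controls and neither passed (log2 fold change 1.51 ± 0.35 SE, adjusted p = 0.0729 and log2 fold change 1.14 ± 0.29 SE, adjusted p = 0.1). *Col1a1* had BPTF KD tumor 6 within the range of the controls (log2 fold change 1.56 ± 0.46 SE, adjusted p = 0.147), and *P4ha2*, a collagen prolyl hydroxylase, and *Serpinh1*, the collagen chaperone HSP47, differed by 1.30 and 0.93 (adjusted p = 0.0575 and 0.0788).

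Of 14 other collagens, 1 rose and 0 fell, with a median of 0.55. *Col4a5*, a basement membrane chain, was at 10.90, 10.73, 11.29, 10.91, 11.37 and 11.24 in BPTF KD tumors and 9.86, 9.97 and 9.58 in controls and rose 2.41-fold with no overlap (log2 fold change 1.27 ± 0.16 SE, adjusted p = 0.00604, 7 of 9 runs). *Col6a1*, of the microfibrillar type VI collagen, differed by 1.37 (adjusted p = 0.0764). None of 15 basement membrane genes passed (1 higher at an unadjusted p under 0.05), at a median of 0.24. Among 30 matricellular and elastic fiber genes, 1 rose, *Ccn5* (log2 fold change 0.75 ± 0.14 SE, adjusted p = 0.0357), and 1 fell, *Fbln1*, encoding the glycoprotein fibulin 1 (log2 fold change -0.96 ± 0.16 SE, adjusted p = 0.0229), at a median of 0.34. *Matn2* and *Ccn4*, a matrix adaptor and a Wnt-induced matricellular protein, differed by 1.72 and 1.71 and missed the threshold (adjusted p = 0.0547 and 0.0608). Other matrix genes outside these lists also rose. *Vtn*, encoding the adhesive glycoprotein vitronectin, rose 2.17-fold, *Emilin1*, of elastic fibers, 2.17-fold, and *Thbs3*, a thrombospondin, 1.86-fold (adjusted p = 0.00798, 0.0186 and 0.0113).

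The matrix metalloproteases split. Of 25 protease and inhibitor genes, 2 rose and 1 fell, and the median was 0.002. *Mmp2*, encoding gelatinase A, was at 10.08, 10.35, 10.56, 11.32, 11.21 and 10.93 in BPTF KD tumors and 9.32, 9.62 and 8.44 in controls. Every BPTF KD tumor was above every control, control 2 being the closest (3.06-fold, log2 fold change 1.61 ± 0.31 SE, adjusted p = 0.037, 3 of 9 runs). *Mmp14*, the membrane protease that activates pro-MMP2, was at 10.64, 10.63, 10.62, 11.03, 11.08 and 10.68 in BPTF KD tumors and 10.15, 10.08 and 9.83 in controls and rose 1.69-fold (log2 fold change 0.76 ± 0.14 SE, adjusted p = 0.0327, 3 of 9 runs). *Mmp10*, encoding stromelysin 2, went the other way and was at 5.33, 5.18, 5.38, 5.39, 5.43 and 5.51 in BPTF KD tumors and 7.06, 6.46 and 8.37 in controls. The BPTF KD tumors formed a tight low group and the controls were spread above them, control 3 highest (3.8-fold lower, log2 fold change -1.93 ± 0.31 SE, adjusted p = 0.0189, 7 of 9 runs). *Serpinb2*, encoding plasminogen activator inhibitor 2, was at 5.70, 5.75, 4.75, 5.36, 4.65 and 4.53 in BPTF KD tumors and 7.27, 6.76 and 7.17 in controls, 3.85-fold lower with no overlap (log2 fold change -1.94 ± 0.29 SE, adjusted p = 0.0117, 7 of 9 runs). Among serine proteases, *Prss23* rose 2.71-fold (log2 fold change 1.44 ± 0.17 SE, adjusted p = 0.00505) and *Prss22* fell 2.29-fold (log2 fold change -1.19 ± 0.12 SE, adjusted p = 0.00335). *Itgbl1*, an integrin beta-like protein without a membrane anchor, was at 8.31, 8.14, 8.49, 8.12, 6.60 and 7.86 in BPTF KD tumors and 5.89, 6.40 and 5.89 in controls. BPTF KD tumor 5 stood apart from the other 5 and close to control 2 (3.63-fold higher, log2 fold change 1.86 ± 0.35 SE, adjusted p = 0.0329, 2 of 9 runs).

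A few growth factor genes passed, among them *Igfbp6*, *Pdgfc* and *Pdgfa*, which rose, and the EGF receptor ligands *Ereg* and *Btc*, which fell. Of 27 genes of FGF, PDGF, IGF and HGF signalling, 3 rose and 0 fell, at a median of 0.118. *Igfbp6*, which binds and restrains IGF-II, was at 11.17, 11.20, 10.77, 11, 10.91 and 11.24 in BPTF KD tumors and 9.21, 10.14 and 8.93 in controls, 3.08-fold higher with no overlap (log2 fold change 1.62 ± 0.23 SE, adjusted p = 0.00939, 7 of 9 runs). *Pdgfc* and *Pdgfa*, ligands of the PDGF receptors, rose 1.94-fold and 1.44-fold (adjusted p = 0.00918 and 0.0347). The receptor gene *Pdgfrb* was above every control in all 6 tumors without passing (log2 fold change 1.32 ± 0.31 SE, adjusted p = 0.0745), and *Fgfr2* likewise (log2 fold change 0.51 ± 0.11 SE, adjusted p = 0.0608). Of 31 Wnt genes 0 passed, at a median of 0.12. Of them, 7 were higher and 1 lower at an unadjusted p under 0.05 (limma, against 934 and 817 of all 12394 genes). *Fzd2*, a frizzled receptor, differed by 0.75 (adjusted p = 0.0598). Of 22 angiogenic factors 0 passed, with 7 higher and 1 lower at an unadjusted p under 0.05 (limma, against the same shares of all genes). *Vegfa* differed by 0.94 and the repellent *Sema3a* by -1.70 (adjusted p = 0.108 and 0.0554).

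Of 13 EGF family ligands and ErbB receptors, 0 rose and 2 fell, and the median was -0.09. *Ereg*, encoding epiregulin, was at 8.43, 8.44, 8.25, 7.65, 9.02 and 8.41 in BPTF KD tumors and 10.84, 9.19 and 11 in controls. All BPTF KD tumors were below all controls, although tumor 5 came close to control 2 (3.94-fold lower, log2 fold change -1.98 ± 0.38 SE, adjusted p = 0.0357, 2 of 9 runs). *Btc*, encoding betacellulin, was at 8.40, 8.14, 8.12, 6.89, 8.52 and 9.16 in BPTF KD tumors and 10.12, 9.80 and 10.58 in controls, with tumor 4 lowest and no overlap (3.9-fold lower, log2 fold change -1.96 ± 0.39 SE, adjusted p = 0.0405, 4 of 9 runs). The 2 genes lie on chromosome 5 with *Areg*, not analysed here, between them. *Hbegf* was at 10.12, 10.39, 9.70, 10.40, 10.74 and 9.45 in BPTF KD tumors and 11.59, 10.73 and 11.71 in controls, where BPTF KD tumor 5 overlapped with control 2 (log2 fold change -1.21 ± 0.30 SE, adjusted p = 0.0847). MAPK feedback and early response genes, which these ligands induce in many cells, had a median of -0.28 over 19 genes with 0 calls. Of the 19, 6 were lower and 1 higher at an unadjusted p under 0.05 (limma, against 817 and 934 of all 12394 genes). Whether the lower ligands played a part was not tested. *Dusp6*, an ERK phosphatase, lay below every control in all 6 tumors (log2 fold change -0.53 ± 0.14 SE, adjusted p = 0.102). *Etv5* and *Jun* differed by -0.85 and -0.45, and *Fos* by 0.61 (adjusted p = 0.168, 0.175 and 0.257). Their mean level was 8.44 to 8.61 in BPTF KD tumors other than tumor 5, which was at 8.99, and 8.77 to 8.91 in controls.

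Genes of chromatin, development and cell identity were among the largest increases. *Sfmbt2*, a Polycomb group gene imprinted in the mouse, was at 6.80, 6.72, 7.17, 7.41, 7.15 and 7.26 in BPTF KD tumors and 5.08, 5.73 and 4.55 in controls. All BPTF KD tumors were well above all controls (3.9-fold, log2 fold change 1.97 ± 0.24 SE, adjusted p = 0.00505, 8 of 9 runs). *Krt8*, a keratin of simple epithelia, was at 8.42, 8.38, 8.65, 9.22, 8.43 and 8.67 in BPTF KD tumors and 7.07, 7.22 and 6.56 in controls, with tumor 4 highest and a gap of more than 1 log2 unit to the controls (3.2-fold, log2 fold change 1.68 ± 0.20 SE, adjusted p = 0.00505, 8 of 9 runs). *Krt8* was the 1 gene of 20 luminal and adhesion genes that rose. Its partner *Krt18* differed by 0.57 and *Epcam* by 0.68 (adjusted p = 0.48 and 0.317), and the list median was 0.05. Of 13 basal epithelial genes 0 passed (1 higher and 1 lower at an unadjusted p under 0.05). *Krt14* was at 9.63, 9.91, 8.35, 8.44, 8.03 and 9.09 in BPTF KD tumors and 6.93, 7.01 and 7.59 in controls, above every control in all 6 tumors without passing (log2 fold change 1.73 ± 0.39 SE, adjusted p = 0.0627), and its partner *Krt5* differed by -0.14 (adjusted p = 0.793).

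*Zfhx4*, a zinc finger homeobox gene, was at 7.20, 6.56, 7.38, 7.83, 7.86 and 7.32 in BPTF KD tumors and 5.95, 6.08 and 5.29 in controls (3-fold higher, log2 fold change 1.58 ± 0.28 SE, adjusted p = 0.0246, 5 of 9 runs). *Ebf1*, a transcription factor of B cell, fat and stromal development, was at 9.08, 9.01, 9.11, 9.08, 9.06 and 9.06 in BPTF KD tumors and 7.70, 8.23 and 7.49 in controls. The 6 BPTF KD tumors were almost equal, and control 2 was the nearest control (2.4-fold, log2 fold change 1.26 ± 0.14 SE, adjusted p = 0.00505, 8 of 9 runs). A list of imprinted growth regulators and related genes had 2 rises and 0 falls among 19, with a median of 0.15. *Peg3*, a paternally expressed zinc finger gene, rose 2.49-fold (log2 fold change 1.31 ± 0.22 SE, adjusted p = 0.0201). *Grb14*, an adaptor that inhibits insulin signalling and was listed only as a relative of the imprinted *Grb10*, rose 2.43-fold (log2 fold change 1.28 ± 0.22 SE, adjusted p = 0.0246). *Grb10* itself was above every control in all 6 tumors and just missed the threshold (log2 fold change 1.08 ± 0.23 SE, adjusted p = 0.0521). *Crabp2*, a carrier of retinoic acid, rose 2.94-fold (log2 fold change 1.56 ± 0.28 SE, adjusted p = 0.0261).

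Several of the largest increases were genes of membranes and metabolism. *Gsg1*, a gene best known from germ cells, was at 7.68, 7.83, 7.22, 8.07, 7.09 and 9.13 in BPTF KD tumors and 5.59, 5.78 and 5.64 in controls, tumor 6 highest (4.49-fold, log2 fold change 2.17 ± 0.36 SE, adjusted p = 0.0221, 6 of 9 runs). *Fxyd1*, phospholemman, a regulator of the sodium pump, was at 9.64, 9.39, 9.73, 9.15, 8.40 and 9.90 in BPTF KD tumors and 7.34, 7.97 and 7.19 in controls (3.65-fold, log2 fold change 1.87 ± 0.30 SE, adjusted p = 0.0186, 6 of 9 runs). *Tmeff1*, a transmembrane protein with follistatin-like domains, was at 7.52, 6.82, 6.60, 7.48, 6.65 and 6.82 in BPTF KD tumors and 5.37, 5.41 and 4.97 in controls (3.32-fold, log2 fold change 1.73 ± 0.23 SE, adjusted p = 0.00681, 7 of 9 runs). None of these 3 overlapped with the controls, and tumor 5 was the lowest BPTF KD tumor in *Gsg1* and *Fxyd1*. *Tmem47* was at 9.76, 9.33, 9.52, 9.82, 9.97 and 9.93 in BPTF KD tumors and 8.12, 8.61 and 7.51 in controls (3.12-fold, log2 fold change 1.64 ± 0.22 SE, adjusted p = 0.00834, 8 of 9 runs). *Ak4*, a mitochondrial adenylate kinase, was at 9.30, 9.26, 8.77, 9.11, 9.21 and 8.86 in BPTF KD tumors and 7.13, 8.39 and 6.82 in controls, where control 2 was more than 1 log2 unit above the other controls (3.11-fold, log2 fold change 1.64 ± 0.29 SE, adjusted p = 0.0248, 3 of 9 runs). *Cacna1a*, the pore subunit of a voltage-gated calcium channel, was at 7.84, 7.70, 7.64, 7.77, 6.63 and 6.87 in BPTF KD tumors and 5.63, 6.12 and 5.59 in controls, tumors 5 and 6 being closest to the controls (3.09-fold, log2 fold change 1.63 ± 0.28 SE, adjusted p = 0.0238, 4 of 9 runs). Among lipid genes, *Fabp5*, a fatty acid carrier, rose 1.81-fold, *Fads3*, a desaturase family member, 1.95-fold, and *Plaat3*, a phospholipase and acyltransferase, 2.39-fold (adjusted p = 0.00505, 0.00939 and 0.00939).

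Among genes that act at the cell surface and in the immune system, *Cd200*, which restrains myeloid cells through its receptor, rose 2.04-fold (log2 fold change 1.03 ± 0.16 SE, adjusted p = 0.0183). The chemokine *Ccl27a* rose 2.49-fold from a low level (log2 fold change 1.31 ± 0.26 SE, adjusted p = 0.0405), the scavenging chemokine receptor *Ackr3* 1.8-fold (log2 fold change 0.85 ± 0.10 SE, adjusted p = 0.00511) and *Il13ra1*, a receptor subunit for interleukins 4 and 13, 1.63-fold (log2 fold change 0.70 ± 0.14 SE, adjusted p = 0.0405). The tetraspanin *Cd81* rose 1.6-fold (log2 fold change 0.68 ± 0.13 SE, adjusted p = 0.034). Stress and repair genes that rose were *Plk2*, a p53-induced kinase (log2 fold change 0.78 ± 0.14 SE, adjusted p = 0.0261), and *Mgmt*, which removes alkyl groups from guanine (log2 fold change 0.82 ± 0.15 SE, adjusted p = 0.0299). *Plk2* was the 1 of 22 DNA damage and p53 target genes that passed. Of the 22, 9 were higher and 13 lower, at a median of -0.21. *Gjb5*, a connexin, *Speg*, a kinase of striated muscle, *Pard6g*, of the polarity complex, and *Sec23a*, a coat protein of vesicles leaving the endoplasmic reticulum, rose 2.04-, 2.81-, 2.73- and 1.5-fold (adjusted p = 0.00918, 0.01, 0.0238 and 0.041). *Speg* had another probe set in the opposite direction.

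The share of genes called was 2.49% on the X chromosome, where 9 of 402 rose and 1 fell, 2.38% on chromosome 3 (8 rose and 7 fell) and 2.03% on chromosome 4 (6 rose and 9 fell), against 1.14% of all genes. On the X chromosome, *Maged1* and *Maged2*, of the MAGE family, rose 1.49- and 2.27-fold, *Pak3*, a p21-activated kinase, 1.92-fold, and the near neighbors *Zfp275* and *Haus7* 2.65- and 1.73-fold (adjusted p = 0.0479, 0.034, 0.00505, 0.0183 and 0.00939). Another close pair that rose was *Rnf207* and *Kcnab2* on chromosome 4 (log2 fold change 1.0 ± 0.18 SE, adjusted p = 0.0283 and log2 fold change 0.71 ± 0.13 SE, adjusted p = 0.0261).

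The largest decreases were genes of epithelial progenitors and milk. *Plet1*, a surface protein of placenta and epithelial progenitor cells, was at 6.26, 6.40, 6.06, 6.02, 7.24 and 6.41 in BPTF KD tumors and 9.79, 7.75 and 11.49 in controls. The controls were spread over more than 3 log2 units, control 2 lowest, and BPTF KD tumor 5 came closest to it (9.7-fold lower, log2 fold change -3.28 ± 0.61 SE, adjusted p = 0.0327, 2 of 9 runs). *Csn3*, encoding the milk protein kappa-casein, was at 7.09, 6.66, 6.63, 7.01, 6.88 and 6.94 in BPTF KD tumors and 9.80, 8.04 and 10.87 in controls. The BPTF KD tumors lay close together and the controls were spread above them, control 3 highest (6.51-fold lower, log2 fold change -2.70 ± 0.45 SE, adjusted p = 0.0221, 5 of 9 runs). *Plet1* and *Csn3* were the 2 of 16 milk and alveolar genes that passed, and the list median was 0.01. The dimmer probe sets of these genes did not show such changes, at 0.13 for *Plet1* and -0.27 for *Csn3*.

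Single genes known from immune cells were among the decreases, whereas others, such as *Cd200* and *Irf1*, rose. Of 14 immune signalling phosphatases and kinases 0 rose and 1 fell, at a median of -0.028. The gene that fell was *Ptpn22*, a phosphatase known for restraining antigen receptor signals, which was at 6.30, 5.98, 6.64, 6.47, 6.30 and 5.73 in BPTF KD tumors and 9.56, 7.26 and 9.66 in controls. Control 2 was the lowest control and no BPTF KD tumor reached it (6.02-fold lower, log2 fold change -2.59 ± 0.45 SE, adjusted p = 0.0246, 4 of 9 runs). *Il33*, an alarmin of barrier and stromal cells that acts on mast cells and innate lymphoid cells, was at 8.27, 8.69, 8.37, 8.87, 7.73 and 7.77 in BPTF KD tumors and 10.72, 9.15 and 10.67 in controls, with BPTF KD tumor 4 close to control 2 (3.72-fold lower, log2 fold change -1.90 ± 0.36 SE, adjusted p = 0.0346, 3 of 9 runs). *Ifng* was at 4.03, 3.91, 3.74, 3.59, 3.76 and 3.75 in BPTF KD tumors and 4.59, 4.24 and 4.68 in controls. Both groups were near the bottom of the array's range, so that the fall of 1.63-fold is one between dim signals (log2 fold change -0.71 ± 0.13 SE, adjusted p = 0.0325). *Cd80*, a costimulatory ligand, fell 2.97-fold, *Havcr2*, the inhibitory receptor TIM-3, 2.39-fold, and *Tnfaip2*, a TNF-induced gene, 2.06-fold (adjusted p = 0.0452, 0.0343 and 0.00505). *Cd80* had another probe set in the opposite direction. *Socs2*, a suppressor of growth hormone and cytokine signals, fell 3.05-fold (log2 fold change -1.61 ± 0.29 SE, adjusted p = 0.0287). Of 26 interleukins and inflammatory cytokines 0 rose and 2 fell, *Il33* and *Ifng*, at a median of 0.04, and *Csf2* lay below every control without passing (log2 fold change -0.65 ± 0.16 SE, adjusted p = 0.086).

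*Slc40a1*, encoding ferroportin, the only known iron exporter of mammalian cells, had the smallest p of all genes. It was at 6.74, 6.59, 6.94, 6.56, 6.62 and 6.58 in BPTF KD tumors and 8.36, 8.47 and 8.75 in controls. Both groups were tight and more than 1 log2 unit apart (3.62-fold lower, log2 fold change -1.85 ± 0.12 SE, adjusted p = 0.000198, 9 of 9 runs). It lies on chromosome 1 next to *Col5a2*, which rose, with *Wdr75* between them (log2 fold change 0.26 ± 0.13 SE, adjusted p = 0.424). *Kctd4*, with a BTB domain, was at 6.44, 6.12, 6.16, 5.87, 5.79 and 6.36 in BPTF KD tumors and 7.93, 7.82 and 7.57 in controls and was as clearly separated (log2 fold change -1.65 ± 0.16 SE, adjusted p = 0.00194, 9 of 9 runs), as was *Dppa4*, a gene of pluripotent cells (log2 fold change -1.51 ± 0.14 SE, adjusted p = 0.00152).

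**Figure D3:**
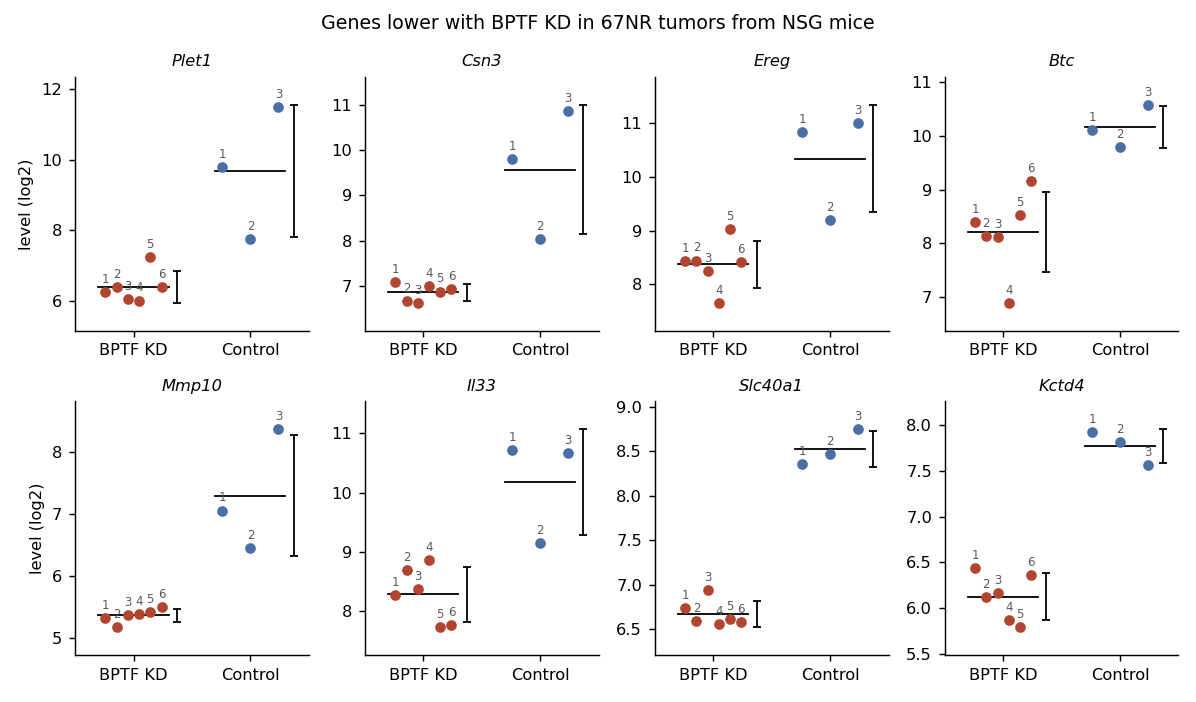
Log2 level of *Plet1*, *Csn3*, *Ereg*, *Btc*, *Mmp10*, *Il33*, *Slc40a1* and *Kctd4* in each 67NR tumor from NSG mice, BPTF KD left (red, n = 6) and control right (blue, n = 3), with tumor numbers, group means (lines) and mean ± SD (brackets). All 6 BPTF KD tumors lie below all 3 controls in each panel, and control 2 is the lowest control in *Plet1*, *Csn3*, *Ereg*, *Btc*, *Mmp10* and *Il33*.

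Metabolic genes among the decreases included *Hao1*, the peroxisomal glycolate oxidase, at 7.96, 7.98, 7.59, 6.56, 7.72 and 8.37 in BPTF KD tumors and 10.30, 8.66 and 10.51 in controls, control 2 being closest to the BPTF KD tumors (4.37-fold lower, log2 fold change -2.13 ± 0.44 SE, adjusted p = 0.047, 2 of 9 runs). *Pla2g5*, a secreted phospholipase A2, was at 4.36, 4.82, 3.97, 3.32, 4.42 and 4.16 in BPTF KD tumors and 6.62, 5.31 and 6.90 in controls, with BPTF KD tumor 4 lowest and no overlap. The levels in BPTF KD tumors were near the bottom of the array's range and the size of the fold is uncertain (4.29-fold lower, log2 fold change -2.10 ± 0.36 SE, adjusted p = 0.0246, 5 of 9 runs). *Gstk1*, a glutathione transferase, fell 3.01-fold and *Upp1*, uridine phosphorylase, 2.28-fold (adjusted p = 0.00604 and 0.0201). The aldehyde oxidase genes *Aox1* and, at low signal, *Aox4* fell (log2 fold change -0.94 ± 0.16 SE, adjusted p = 0.0238 and log2 fold change -0.85 ± 0.15 SE, adjusted p = 0.0283), and *Aox3* between them on chromosome 1 differed by -0.09. Of 17 cholesterol synthesis genes 0 rose and 1 fell, *Dhcr7*, the last reductase of the pathway (log2 fold change -0.97 ± 0.20 SE, adjusted p = 0.044), at a median of -0.30.

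Developmental genes that fell were *Lhx8*, a LIM homeobox gene, at 4.02, 3.55, 3.96, 3.90, 3.81 and 3.63 in BPTF KD tumors and 5.68, 7.87 and 4.96 in controls. The controls were spread, here with control 2 highest, above a tight group near the bottom of the array's range, so that the size of the fold is uncertain (5.13-fold lower, log2 fold change -2.36 ± 0.48 SE, adjusted p = 0.044, 3 of 9 runs). *Msx2*, a homeobox gene of epithelium and bone, fell 1.97-fold, *Lgr6*, an R-spondin receptor of epithelial stem cells, 2.58-fold, and *Apcdd1*, a Wnt inhibitor, 2.37-fold (adjusted p = 0.0405, 0.0183 and 0.0116). *Pdpn*, the membrane glycoprotein podoplanin of lymphatic endothelium, fibroblasts and invading tumor cells, was at 10.72, 10.98, 10.75, 10.56, 11.27 and 11.42 in BPTF KD tumors and 12.73, 12.17 and 12.89 in controls, 3.13-fold lower with no overlap (log2 fold change -1.65 ± 0.22 SE, adjusted p = 0.00681, 7 of 9 runs). Of the other genes in the 15 largest decreases, *D17H6S56E-5* was at 9.58, 10.04, 9.57, 9.86, 10.52 and 9.0 in BPTF KD tumors and 12.51, 11.03 and 12.97 in controls (5.31-fold lower, log2 fold change -2.41 ± 0.40 SE, adjusted p = 0.0221, 5 of 9 runs). *Ankrd33b* was at 6.86, 6.92, 6.66, 6.46, 6.89 and 7.47 in BPTF KD tumors and 9.01, 8.36 and 9.59 in controls (4.32-fold lower, log2 fold change -2.11 ± 0.26 SE, adjusted p = 0.00537, 8 of 9 runs). *Cyfip2*, of the WAVE actin regulatory complex, was at 5.19, 4.83, 4.94, 5.33, 5.71 and 4.89 in BPTF KD tumors and 7.15, 5.98 and 7.38 in controls, with tumor 5 near control 2 (3.22-fold lower, log2 fold change -1.69 ± 0.29 SE, adjusted p = 0.0246, 4 of 9 runs). In all 3 the groups did not overlap. *Pcdh7*, a protocadherin, fell 2.94-fold, *Rab6b*, a Golgi GTPase, 2.56-fold, *Padi2*, an enzyme that citrullinates histones and other proteins, 2.38-fold, *Gem*, an inhibitor of calcium channels, 2.4-fold and *Fggy*, a carbohydrate kinase, 2.69-fold (adjusted p = 0.00948, 0.00505, 0.0189, 0.0458 and 0.0246). The other probe set of *Pcdh7* differed by only -0.02. *Prxl2a* fell 3.06-fold (log2 fold change -1.61 ± 0.32 SE, adjusted p = 0.0386) with another probe set in the opposite direction, and *Pcolce2*, an enhancer of procollagen processing, fell 2.12-fold (log2 fold change -1.08 ± 0.20 SE, adjusted p = 0.0281).

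Genes of cell division were lower together by small amounts. Of 29 cell cycle and mitosis genes 0 rose and 1 fell, all 29 were lower, and the median was -0.43. Of them, 17 were lower at an unadjusted p under 0.05 (limma, against 817 of all 12394 genes). In 9 of the 29 all 6 BPTF KD tumors lay below every control (against 3.1% of all genes). Their mean level was 9.91, 9.90, 9.84, 9.80, 9.90 and 9.23 in BPTF KD tumors and 10.21, 10.22 and 10.37 in controls. BPTF KD tumor 6 was lowest, and no BPTF KD tumor reached the controls. *Nuf2*, of the kinetochore, was at 8.64, 8.93, 8.90, 8.72, 8.21 and 8.59 in BPTF KD tumors and 9.55, 9.24 and 9.68 in controls (log2 fold change -0.82 ± 0.17 SE, adjusted p = 0.0425, 2 of 9 runs). Its partner *Ndc80* was at 9.22, 8.88, 9.14, 8.71, 8.69 and 8.82 in BPTF KD tumors and 9.26, 9.51 and 9.66 in controls and *Ube2c*, which marks mitotic proteins for degradation, at 11.26, 11.55, 11.22, 11.31, 11.79 and 10.67 in BPTF KD tumors and 11.96, 12.17 and 12.21 in controls. In both all BPTF KD tumors were below all controls, without passing (log2 fold change -0.57 ± 0.15 SE, adjusted p = 0.105 and log2 fold change -0.81 ± 0.20 SE, adjusted p = 0.0918). *Ccna2*, cyclin A2, differed by -0.35 and *Prc1*, which bundles spindle microtubules, by -1.10 (adjusted p = 0.122 and 0.141). *Ccnd1*, cyclin D1 of the entry into the cycle, was at 12.63, 12.83, 12.54, 12.39, 12.87 and 12.03 in BPTF KD tumors and 13.64, 13.18 and 13.72 in controls and fell 1.95-fold (log2 fold change -0.96 ± 0.19 SE, adjusted p = 0.041, 3 of 9 runs). Genes of DNA handling that fell were *H2ax*, the histone variant phosphorylated at breaks, *Ercc1*, an excision repair nuclease subunit, and *Pold4*, a polymerase delta subunit (log2 fold change -0.73 ± 0.13 SE, adjusted p = 0.0247, log2 fold change -1.12 ± 0.18 SE, adjusted p = 0.0178 and log2 fold change -1.43 ± 0.27 SE, adjusted p = 0.0327). *Diaph3*, a formin needed in cytokinesis, also fell (log2 fold change -1.07 ± 0.19 SE, adjusted p = 0.0278). Of 33 DNA replication genes 0 passed (3 lower at an unadjusted p under 0.05), at a median of -0.19, and *Rpa2*, of the single strand binding complex, differed by -0.54 (adjusted p = 0.111).

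Heparan sulfate on the tumor cell surface is known as a ligand of NK cell receptors. Of 30 heparan sulfate enzymes 0 rose and 1 fell, at a median of 0.002. *Ndst3*, an N-deacetylase and N-sulfotransferase that starts sulfation of the chain, was at 4.35, 4.49, 4.51, 4.31, 4.75 and 4.41 in BPTF KD tumors and 5.95, 4.97 and 5.92 in controls. Its signal was low in both groups, and BPTF KD tumor 5 came close to control 2 (2.21-fold lower, log2 fold change -1.14 ± 0.20 SE, adjusted p = 0.0261, 3 of 9 runs). *Ext1*, a chain polymerase, and *Hs2st1*, a 2-O-sulfotransferase, differed by 0.76 and 0.43 (adjusted p = 0.141 and 0.136). Of 14 proteoglycan cores 0 passed (4 higher and 2 lower at an unadjusted p under 0.05), at a median of 0.18, with *Sdc2*, syndecan 2, at 0.69 and *Cd44* at -0.75 (adjusted p = 0.118 and 0.175). Of 11 measured genes in a mixed list of heparan sulfate, protease, NK cell and MHC class I genes, 2 rose (*Mmp2* and *Mmp14*) and 2 fell (*Ndst3* and *Ifng*), and the other 7 lay between -0.18 (*Adam17*, a sheddase) and 0.36 (*Sdc1*, syndecan 1). That list was drawn up with earlier results of these tumors known and is no independent evidence of a direction. Of 14 NK cell ligands 0 passed (1 lower at an unadjusted p under 0.05), at a median of -0.023.

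Of the interferon and antigen presentation lists, 1 gene passed. Of 20 genes of the interferon gamma response 1 rose and 0 fell, at a median of -0.04. The gene that rose was *Irf1*, a transcription factor of interferon responses and MHC class I, which was at 10.92, 10.92, 10.83, 11.19, 10.61 and 10.85 in BPTF KD tumors and 10.20, 10.21 and 10.21 in controls. The controls were nearly equal and all BPTF KD tumors were above them (1.6-fold, log2 fold change 0.68 ± 0.12 SE, adjusted p = 0.0278, 4 of 9 runs). *Gbp2*, an interferon-induced GTPase, was at 10.42, 10.31, 10.48, 10.84, 9.69 and 10.34 in BPTF KD tumors and 9.71, 9.42 and 9.54 in controls, and BPTF KD tumor 5 lay within the controls (log2 fold change 0.79 ± 0.20 SE, adjusted p = 0.1). Of 17 type I interferon-stimulated genes 0 passed (15 lower and 2 higher, 1 of them lower at an unadjusted p under 0.05, median -0.16), of 19 MHC class I presentation genes 0 passed (5 higher and 0 lower at an unadjusted p under 0.05, median 0.15) and of 11 MHC class II genes 0 passed (0 at an unadjusted p under 0.05, median -0.03). In the class I list, 4 of 19 genes lay above every control in all 6 tumors (against 3.76% of all genes). Among them were *Erap1*, which trims peptides for class I, and *Psme1*, a proteasome activator subunit (log2 fold change 0.61 ± 0.14 SE, adjusted p = 0.0624 and log2 fold change 0.43 ± 0.12 SE, adjusted p = 0.141). The peptide transporter gene *Tap1* differed by 0.38 (adjusted p = 0.193). Of 29 chemokines 1 rose, *Ccl27a*, and 0 fell.

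**Figure D4:**
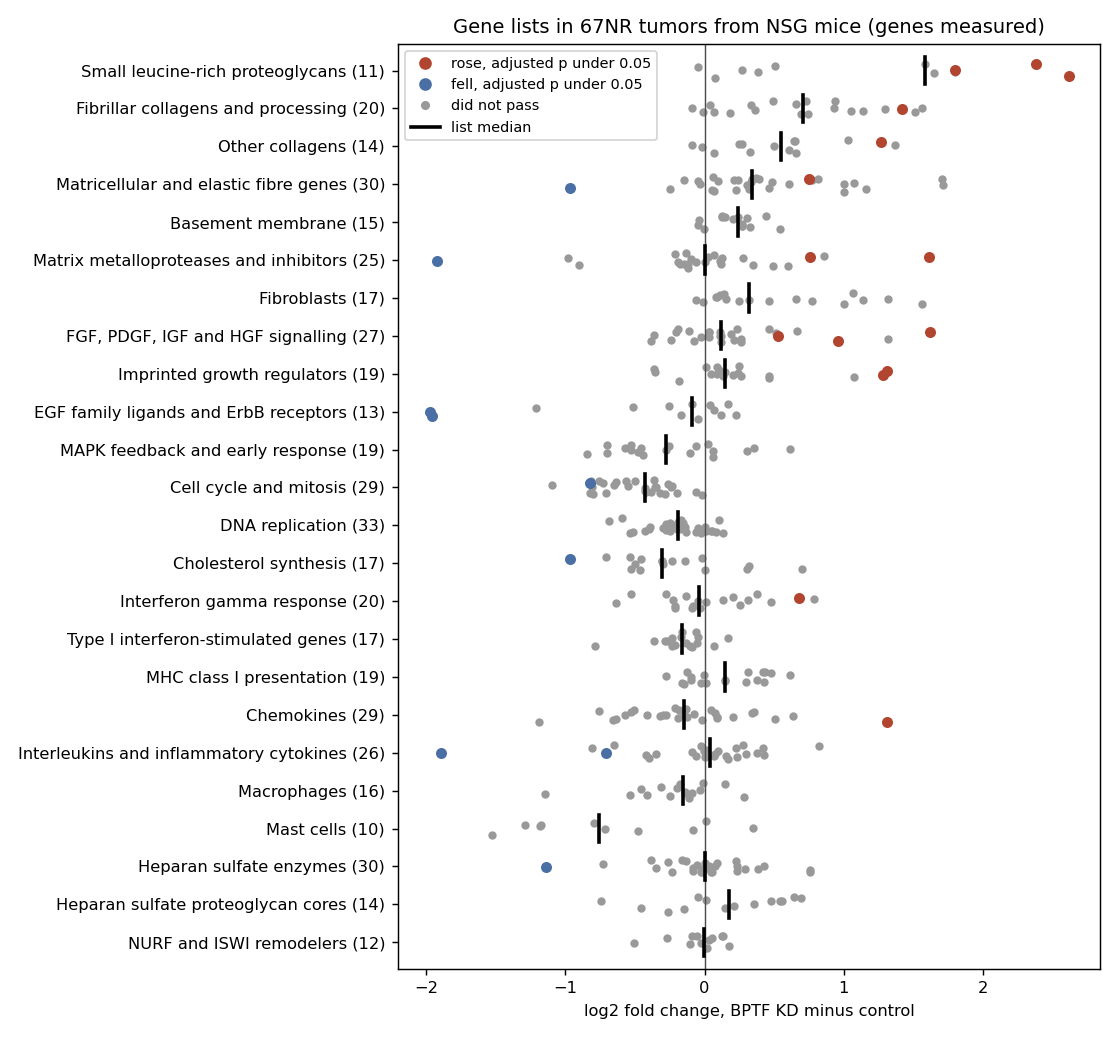
Log2 fold change (BPTF KD minus control) of each measured gene of 24 gene lists in 67NR tumors from NSG mice, with the number of genes in brackets; red points rose and blue points fell at an adjusted p under 0.05, gray points did not pass and black bars are list medians. The small leucine-rich proteoglycans have the highest median (1.59), and every cell cycle and mitosis gene lies below 0.

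Markers of host cells moved with some of these groups. Of 17 fibroblast genes, many of which are collagens of the lists above, 0 passed and the median was 0.32. Of them, 7 were higher at an unadjusted p under 0.05 (limma, against 934 of all 12394 genes). In 3 of the 17 all 6 BPTF KD tumors lay above every control (against 3.76% of all genes). Their mean level was 10.27 to 11.15 in BPTF KD tumors and 9.97 to 10.42 in controls, so that the ranges overlapped, whereas those of the small leucine-rich proteoglycans did not. Among the BPTF KD tumors, tumor 4 was highest in both list means (11.15 for fibroblast genes and 8.93 for small leucine-rich proteoglycans). Tumors 5 and 6 were the lowest BPTF KD tumors in both (10.73 and 10.27, and 8.19 and 8.20). Control 3 was the lowest control in both (9.97 and 7.15). BPTF KD tumor 6 was highest in *Dcn*. The part of fibroblast content in the matrix genes was not tested. Of 10 mast cell genes 0 passed (1 higher and 3 lower at an unadjusted p under 0.05) and the median was -0.76. *Cma1*, a mast cell chymase, was at 6.44, 7.0, 6.05, 7.04, 5.80 and 7.44 in BPTF KD tumors and 8.32, 6.89 and 9.27 in controls and *Cpa3*, mast cell carboxypeptidase, at 8.45, 8.34, 7.68, 8.04, 6.38 and 8.64 in BPTF KD tumors and 9.57, 7.50 and 10.56 in controls. Control 2 lay among the BPTF KD tumors in both (log2 fold change -1.53 ± 0.48 SE, adjusted p = 0.175 and log2 fold change -1.29 ± 0.63 SE, adjusted p = 0.392). *Hdc*, the histamine-forming enzyme, lay below every control (log2 fold change -0.48 ± 0.12 SE, adjusted p = 0.0812). Of 16 macrophage genes 0 passed (3 lower at an unadjusted p under 0.05), at a median of -0.16 and mean levels of 10.35 to 10.77 in BPTF KD tumors and 10.52 to 10.91 in controls, with *Itgam* at -0.42 and *Cd163* at -1.15 (adjusted p = 0.257 and 0.32). Of 13 adipocyte genes 0 passed (1 lower at an unadjusted p under 0.05), and *Adipoq*, adiponectin of the fat pad, ranged from 4.43 to 10.55 in BPTF KD tumors and from 4.63 to 8.55 in controls. Of 16 endothelial genes 0 passed (1 higher at an unadjusted p under 0.05), at a median of 0.23. Of 14 pericyte and smooth muscle genes 0 passed. At an unadjusted p under 0.05, 4 were higher and 0 lower (limma, against 934 and 817 of all 12394 genes). In 2 of the 14 all 6 BPTF KD tumors lay above every control (against 3.76% of all genes). The mean level was 7.25 to 7.65 in BPTF KD tumors and 7.08 to 7.32 in controls. Of 10 Schwann cell and nerve genes 0 passed. At an unadjusted p under 0.05, 2 were higher and 0 lower (limma, against the same shares of all genes). The mean level did not overlap, at 6.34 to 6.70 in BPTF KD tumors and 6.14 to 6.32 in controls. The part of pericyte, Schwann cell, mast cell, macrophage and fat cell content in the results above was not tested.

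66cl4 tumors in the same host, taken after 28 days from 10000 cells, served to ask which changes differed between the 67NR and 66cl4 tumors. Cell line, day of harvest and number of injected cells changed together, so their parts cannot be told apart. The depth of knockdown was not compared between the lines. They share no tumor with the 67NR comparison. The BPTF KD effect differed between 67NR and 66cl4 tumors for 119 genes (limma interaction over 18 tumors, adjusted p under 0.05, 0.96% of genes), higher in 67NR for 72 and lower for 47. Of the 141 genes called in 67NR tumors, 73 were among them, 44 that rose and 29 that fell. Genes chosen for a large difference in these 67NR tumors are favoured in this overlap. It is no independent evidence of a line difference, and the same holds for their 67NR medians given below. A fit of all 36 tumors called 5. The count was 226 without 67NR BPTF KD tumor 5 and 317 without 67NR control 2. It was 44 and 36 without 67NR controls 1 and 3, 61 and 68 without 67NR BPTF KD tumors 1 and 3, 41 and 39 without 66cl4 controls 1 and 2, and 66 and 76 without 66cl4 BPTF KD tumors 4 and 6. The genes that rose in 67NR tumors, with a median of 1.10, had a median of -0.05 in 66cl4 tumors, and those that fell, with a median of -1.17, had one of -0.005. *Aspn* differed by 2.62 in 67NR tumors, against -0.08 ± 0.20 SE in 66cl4 tumors (difference 2.70 ± 0.49 SE, adjusted p = 0.0128). *Ogn* differed by 2.38 in 67NR tumors, against 0.07 ± 0.10 SE in 66cl4 tumors (difference 2.31 ± 0.34 SE, adjusted p = 0.00235). The keratin gene *Krt8* was likewise 1.68 in 67NR tumors, against 0.01 ± 0.10 SE in 66cl4 tumors (difference 1.66 ± 0.23 SE, adjusted p = 0.00191). Among genes that fell, the smallest p belonged to *Dppa4*, with -1.51 in 67NR tumors, against 0.15 ± 0.14 SE in 66cl4 tumors (difference -1.67 ± 0.20 SE, adjusted p = 0.00175). *Dcn* was 1.80 in 67NR tumors, against -0.05 ± 0.55 SE in 66cl4 tumors, but the error in 66cl4 tumors was wide and the difference did not pass (difference 1.85 ± 0.63 SE, adjusted p = 0.224). Among the genes whose effect differed although they had not passed in 67NR tumors were *Krt14* (difference 2.94 ± 0.64 SE, adjusted p = 0.0347), *Col1a2* (difference 1.97 ± 0.36 SE, adjusted p = 0.0128), *Matn2* (difference 2.10 ± 0.43 SE, adjusted p = 0.0284) and *Ccn4* (difference 2.29 ± 0.45 SE, adjusted p = 0.0203). These 4 were higher on average with BPTF KD in 67NR tumors and lower in 66cl4 tumors. *Grb10* was another (difference 1.40), and *Csf2* went the other way (difference -0.91). For *Slc40a1* and *Csn3* the difference did not pass (difference -1.44 ± 0.39 SE, adjusted p = 0.0896 and -2.39 ± 1.04 SE, adjusted p = 0.437). Cell cycle genes had a median of -0.43 in 67NR tumors, against -0.04 in 66cl4 tumors.

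67NR tumors in BALB/c mice, again other animals, were set beside those in NSG mice to ask which changes depended on the host. No gene passed the test of a difference of the BPTF KD effect between hosts (limma interaction over 18 tumors, 0%, smallest adjusted p = 0.0637, 854 genes at an unadjusted p under 0.05). The count was 16, 2 and 4 without BALB/c BPTF KD tumors 1, 2 and 3, and 27 in a fit of all 36 tumors. A difference that missed the threshold does not show equal effects. Of the 73 genes that rose in NSG mice, 59 were higher on average in BALB/c mice (80.8%, against 57.2% of all genes higher in NSG mice), with a median of 0.38. Of the 68 that fell, 60 were lower (88.2%, against 60.2%), with a median of -0.78. All 6 BPTF KD tumors lay outside the controls in BALB/c mice for 3 of the genes that rose (4.11%, against 3.7%) and for 11 of those that fell (16.18%, against 4.0%). The 3 were *Irf1*, *Plaat3* and *Mmp2*, and the 11 were *Csn3*, *Hao1*, *Ankrd33b*, *Slc40a1*, *Pdpn*, *Socs2*, *Chmp4c*, *Kcnk2*, *Prkg2*, *Nuf2* and *Tpd52*. *Slc40a1* differed by -1.85 in NSG mice, against -2.16 ± 0.42 SE in BALB/c mice. *Csn3* was -2.70 in NSG mice, against -2.29 ± 1.15 SE in BALB/c mice, and *Mmp10* was -1.93 in NSG mice, against -2.23 ± 1.03 SE in BALB/c mice. None of these 3 passed in BALB/c mice, where the errors were larger (adjusted p = 0.5, 0.659 and 0.653). *Aspn* was 2.62 in NSG mice, against -0.04 ± 0.94 SE in BALB/c mice. *Il33* was -1.90 in NSG mice, against -0.21 ± 0.47 SE in BALB/c mice, and *Ifng* was -0.71 in NSG mice, against 2.58 ± 0.81 SE in BALB/c mice. None of these 6 differences between hosts passed. The interferon gamma response list had a median of -0.04 in NSG mice and 1.79 in BALB/c mice, the fibroblast list 0.32 in NSG mice and 0.63 in BALB/c mice, and the cell cycle list -0.43 in NSG mice and -0.69 in BALB/c mice.

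**Figure D5:**
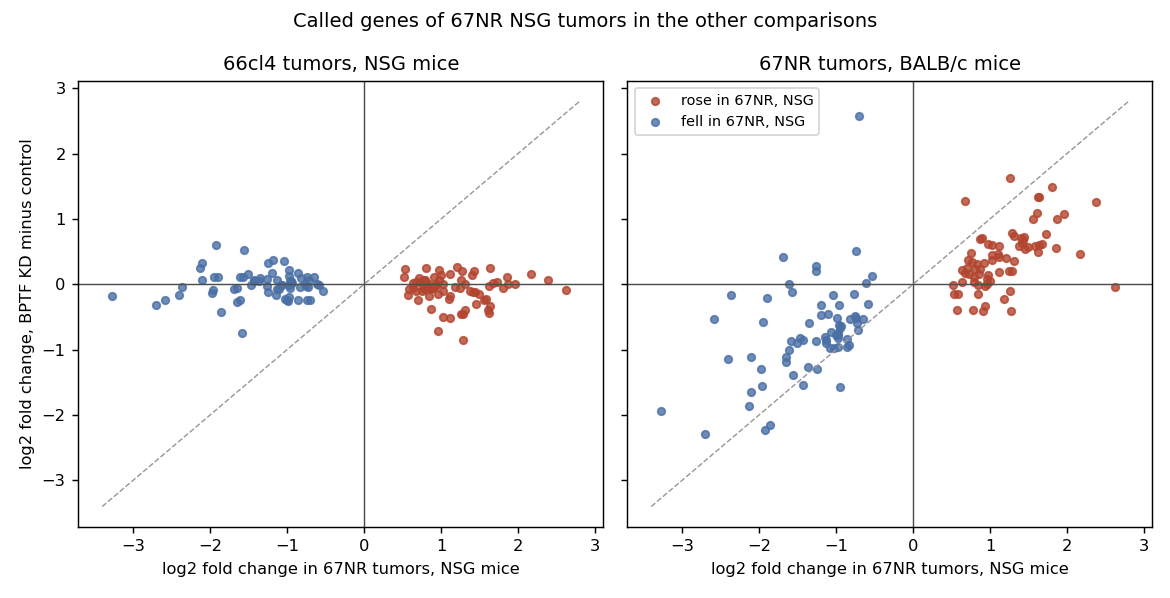
Log2 fold change (BPTF KD minus control) of the 73 genes that rose (red) and 68 that fell (blue) in 67NR tumors from NSG mice (horizontal axis) against 66cl4 tumors from NSG mice (left panel) and 67NR tumors from BALB/c mice (right panel); the dashed line marks equal values. The genes lie near 0 in 66cl4 tumors (medians -0.05 and -0.005), and most keep their sign in BALB/c mice (59 of 73 and 60 of 68).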

How the data were processed

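RNA from 67NR tumors in NSG mice, 6 BPTF KD and 3 control, was analysed, with the 18 tumors of 67NR in BALB/c and 66cl4 in NSG mice for comparison. The authors cut away necrotic tissue, labelled 500 ng RNA for Affymetrix arrays and deposited log2 values normalized with RMA (version not stated). Each of 12394 genes was read from its single-symbol probe set with the highest mean over 36 tumors, with symbols brought up to date through Entrez (RefSeq GRCm38.p6), and the deposited log2 values were used without a filter. Groups were compared with limma 3.58.1 in R 4.3.3 (Benjamini-Hochberg, threshold 0.05), differences between lines or hosts as interactions, and single measures with exact permutation over 84 arrangements (scipy 1.17.1 and numpy 2.4.6 under Python 3.11.15, with tables in pandas 2.3.3 and plots in matplotlib 3.10.9). In simulated data the main test recovered 78% of genes changed by 1 log2 unit and 97% of those changed by 2, against 66% and 97% for the difference between lines and 48% and 84% for that between hosts. Depth does not apply to arrays, and their number limits the precision. The p values set the difference between group means against how tumors of a group vary, and separately derived cell lines were not compared.

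Genes past the threshold could be named, with values in each tumor for the 15 largest changes in each direction. Other genes were named for the smallest p within a list (up to 6 each), as genes of the mixed heparan sulfate and NK cell list, as NURF members, as neighbors, as defining markers, or as 1 of the 10 smallest p of an interaction. The tumors, gene lists and rule were chosen with earlier results of these data known. Alternatives were other sets of tumors in the fit, the methods' t-test, a variance trend, array weights, an RNA integrity covariate, a replicate block, other normalization, centring, filtering and probe set choices, and leaving out each tumor.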

Additional observations from a re-analysis of the deposited data

Results flagged for a closer look

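Of 158 genes and 60 list means, 16 had 1 BPTF KD tumor standing apart from the other 5, measured as the gap to the nearest tumor over the range of the 6. Chance alone gives about 1 in 20. BPTF KD tumor 5 was the one apart in 9 of them. It was low in *Itgbl1* (0.667) and *Maged2* (0.655), high in *Plet1* (0.68), *Diaph3* (0.739), *Cd44* (0.748) and *Vim* (0.724), and by list mean high in MAPK feedback genes (0.7) and low in NK cell ligands (0.627) and in interleukins and inflammatory cytokines (0.637). BPTF KD tumor 6 was high in *Dcn* (0.776) and low in the mean of the cell cycle and mitosis genes (0.837). BPTF KD tumor 4 was high in *Krt8* (0.655) and in the mean of the matrix metalloproteases and inhibitors (0.745) and low in *Kcnk2* (0.741). BPTF KD tumor 3 was low in *Cd80* (0.676), and BPTF KD tumor 1 low in the mean of the ribosomal proteins (0.702).

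For 65 of the genes named, the BPTF KD effect differed between 67NR and 66cl4 tumors in NSG mice (limma interaction, adjusted p under 0.05). The values are the effect in 67NR minus the effect in 66cl4 tumors, in log2 units. Among matrix and growth factor genes, they were 2.70 for *Aspn*, 2.31 for *Ogn*, 1.53 for *Col5a2*, 1.97 for *Col1a2*, 0.81 for *Mmp14*, 1.63 for *Emilin1*, 1.29 for *Vtn*, 2.10 for *Matn2*, 2.29 for *Ccn4*, 1.55 for *Prss23*, 2.06 for *Igfbp6* and 1.67 for *Pdgfc*. Among genes of cell identity and chromatin, they were 2.94 for *Krt14*, 1.66 for *Krt8*, 1.95 for *Sfmbt2*, 1.81 for *Zfhx4*, 1.71 for *Peg3*, 2.13 for *Grb14*, 1.40 for *Grb10*, 1.71 for *Ebf1* and 1.79 for *Crabp2*. Among membrane and metabolic genes, they were 2.02 for *Gsg1*, 1.87 for *Fxyd1*, 1.70 for *Tmeff1*, 1.97 for *Ak4*, 1.13 for *Gjb5*, 0.92 for *Fabp5*, 1.11 for *Fads3*, 1.20 for *Plaat3*, 1.64 for *Speg* and 1.75 for *Pard6g*. Immune and X-linked genes had 0.65 for *Irf1*, 1.53 for *Cd200*, 0.77 for *Cd81*, 1.31 for *Ccl27a*, 0.95 for *Il13ra1*, 0.74 for *Maged1*, 1.23 for *Maged2*, 1.27 for *Zfp275* and 0.93 for *Pak3*.

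The effect was lower in 67NR tumors by the following differences. Genes of epithelium, development and proteolysis had -3.10 for *Plet1*, -2.53 for *Mmp10*, -2.32 for *Lhx8*, -1.59 for *Pdpn*, -1.41 for *Lgr6*, -1.37 for *Prss22*, -1.11 for *Msx2* and -1.08 for *Pcolce2*. Metabolic and signalling genes had -2.42 for *Pla2g5*, -2.38 for *Hao1*, -1.56 for *Upp1*, -1.47 for *Fggy*, -1.58 for *Padi2*, -1.46 for *Rab6b*, -1.04 for *Prkg2* and -1.62 for *Cyfip2*. The remaining genes had -2.24 for *D17H6S56E-5*, -2.18 for *Ankrd33b*, -1.68 for *Cd80*, -1.67 for *Dppa4*, -1.50 for *Pold4*, -1.40 for *Tnfaip2*, -1.38 for *Kctd4*, -1.01 for *Ccnd1* and -0.91 for *Csf2*.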

How the results depend on the processing

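Of the genes called in 67NR NSG tumors (141), the count was 1927 with array weights, 484 in a fit of the 18 NSG tumors and 10 by the methods' t-test after Benjamini-Hochberg (1605 at an unadjusted p under 0.05). The other settings, apart from the replicate block and single tumors, gave 129 to 210. Leaving out 1 tumor gave 5 to 620. For the difference between lines (119) a fit of all 36 tumors gave 5 and single tumors left out 36 to 317, and for the difference between hosts (0) they gave 27 and 0 to 16. The cause was not tested. Replicate numbers did not pair the tumors, with correlations of same-numbered deviations of -0.118, 0.002 and 0.031, and no BPTF KD tumor of these 3 correlated best with its own number. A replicate block gave 685 genes, 184 for the difference between lines and 0 for that between hosts. The 102 called genes named kept direction throughout. The call was lost by 93 with the t-test, 47 in the fit of 36 tumors and 30 with the RNA integrity covariate, and by 0 to 9 under each of the others. When 1 tumor was left out it was lost in 398 of 918 cases. Genes named without a call gained one in 112 of 601 cases, and in 44 of 495 with 1 tumor left out. *Bptf* ranged from -0.46 to -0.06 and the RNA integrity difference from 0.093 to 0.173 without single tumors, neither crossing the threshold.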
